A study of Rattus norvegicus with 16 samples.

Results

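The SLC25 family of mitochondrial solute carriers was examined in rat supraspinatus, a muscle of the rotator cuff. Its members were taken as the rows of the deposited gene table whose symbol begins with Slc25a and a number, leaving out Slc25a20, the carnitine carrier. This gave 38 of the 17147 genes in the table. Of these, 33 averaged at least 10 raw fragments per library, and the same 33 passed the filter on low counts and were tested. The other 5 were nearly or fully without fragments: Slc25a21 averaged 3.38 fragments, Slc25a47 averaged 0.81 and Slc25a41 averaged 0.38, while Slc25a22 and Slc25a54 were listed at 0 in all 16 libraries. Around the limit of 10, Slc25a2 with a mean of 34.5 fragments lay just inside and Slc25a21 just outside. Slc25a12, Slc25a13 and Slc25a36 were not analysed here.

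The 16 libraries came from Sprague Dawley rats and formed 4 groups of 4. Muscle on day 0 was from unoperated controls, and muscle on days 10, 30 and 60 had undergone, on both sides, a full-thickness tear of the supraspinatus with suprascapular neurectomy, which removes its nerve supply. The controls had no operation, so effects of surgery, tear and nerve loss cannot be told apart. All controls were from day 0, so elapsed time, and with it any difference in age, cannot be told apart from injury either. Whether any rat gave more than 1 library is not stated in the labels, so p-values measure the spread between these libraries.

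SLC25 proteins are carriers of the inner mitochondrial membrane, apart from a few that sit in the outer membrane or in peroxisomes. They exchange ADP for ATP, bring in phosphate, and move organic acids, amino acids, cofactors and iron between cytosol and matrix. Skeletal muscle depends on the ADP/ATP exchangers and the phosphate carrier for oxidative energy supply. Several transport steps are shared by closely related members that differ in tissue distribution, and muscle fibres use the ADP/ATP exchanger Slc25a4 as their main isoform.

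Library totals ran from 17.2 to 39.9 M fragments (M, mega), and every 60-day library was smaller than every other. Levels are in CPM (fragments per 1 M, scaled with TMM factors) and are not corrected for gene length. All 12 muscle-fibre markers were detected. Of these, 1 was higher and 11 were lower on day 10, 1 and 9 on day 30, and 2 and 7 on day 60. Their summed level was 280600 to 305700 CPM on day 0, 80840 to 86410 on day 10, 128500 to 180800 on day 30 and 161300 to 184100 on day 60. Of 12 macrophage markers 10 were higher on day 10 and all 12 on days 30 and 60, and their summed level was 52.0 to 84.0 CPM on day 0 and 151 to 201, 222 to 268 and 185 to 328 CPM on days 10, 30 and 60. Of 8 fibroblast markers 7, 8 and 8 were higher on days 10, 30 and 60, with sums of 509 to 1068, 1030 to 3171, 1593 to 2639 and 1397 to 3065 CPM from day 0 to day 60. Of 7 adipocyte markers 1 was lower on days 10 and 30 and 6 were higher on day 60, with sums of 196 to 249, 88.9 to 158 (wholly below day 0), 149 to 201 and 243 to 465 CPM on days 0, 10, 30 and 60. All 6 endothelial markers were lower on day 10, 2 on day 30 and 1 on day 60, when 1 was higher, with sums of 275 to 318, 157 to 228, 234 to 259 and 246 to 372 CPM. In whole-muscle RNA, fewer cells of a type and less RNA per cell cannot be told apart, and the part of these marker changes in the results below was not tested.

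The 38 members as a whole took a smaller share of the fragments on day 10 than on any other day. Together they took 0.724% to 0.771% of all fragments in the 4 libraries on day 0, 0.339% to 0.395% on day 10, 0.514% to 0.691% on day 30 and 0.570% to 0.747% on day 60. The ranges on days 10 and 30 lay below that of day 0, and the range on day 60 overlapped it. Slc25a4 alone supplied 68.6% to 70.5% of the members' fragments on day 0 and 49.96% to 52.8% on day 10. It supplied 60.3% to 67.3% on day 30 and 65.4% to 67.8% on day 60, still below every control library. These shares use raw fragments within a library and do not depend on the scaling factors.

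**Figure D1:**
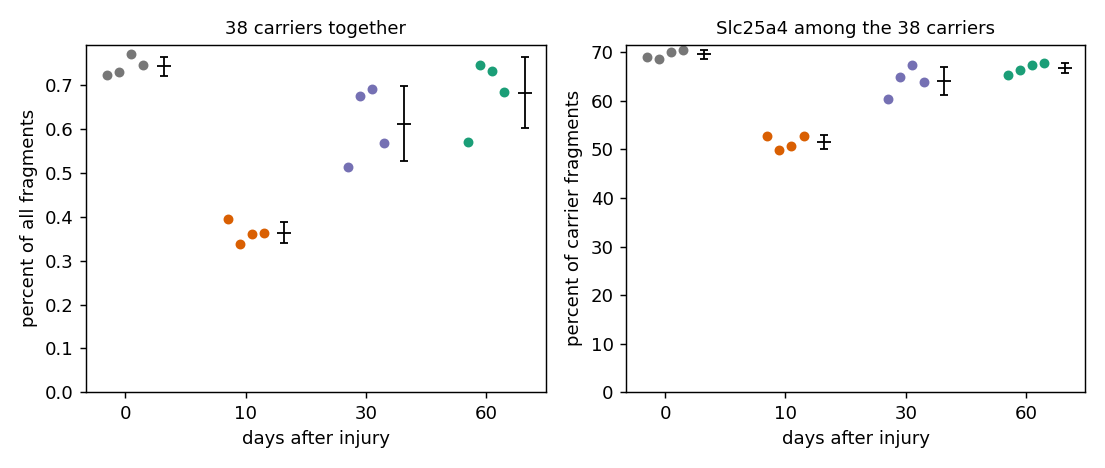
Left, percent of all fragments taken by the 38 carriers in each library (points), and right, percent of the carrier fragments that were Slc25a4, by days after injury, with mean and SD (n = 4). Both are lowest on day 10, at 0.339% to 0.395% and 49.96% to 52.8%, and higher on days 30 and 60.

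With TMM scaling, more of the carriers that changed were lower than higher after injury, and with library totals more were higher. On day 10, 24 of the 33 members differed from day 0 (edgeR, adjusted p under 0.05), 8 higher and 16 lower, against 62.7% of all genes tested, 33.3% higher and 29.4% lower. On day 30, 27 differed, 10 higher and 17 lower, against 64.6% of all genes, 33.7% higher and 30.9% lower. On day 60, 24 differed, 7 higher and 17 lower, against 59%, 29.9% higher and 29.1% lower. The share of members called lower was thus 48.5%, 51.5% and 51.5%. The members' median log2 fold changes were -0.18, -0.40 and -0.34, where the medians of all genes tested were 0.061, 0.046 and 0.040.

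Direction depends in part on how libraries are scaled. With library totals in place of TMM factors, the all-gene median moved by 0.66, 0.49 and 0.41 on days 10, 30 and 60, and the members called were 17 higher and 9 lower on day 10, 14 higher and 10 lower on day 30, and 12 higher and 10 lower on day 60. Each fold change is thus read against the other genes of the muscle. For members, a called direction that turns with library totals is named beside it. Member calls against day 0 that library totals gained are listed under how the results depend on the processing. Across time, 29 of the 33 members differed in the joint test of the 4 groups, against 84.7% of all genes. Lower at all 3 times were 12 members (15.6% of all genes tested did the same), among them Slc25a4, Slc25a11, Slc25a15, Slc25a23, Slc25a25, Slc25a28, Slc25a30, Slc25a34 and Slc25a44. Of those named, Slc25a44 turned on day 10 with library totals (0.051), and calls of Slc25a4, Slc25a15 and Slc25a28 given below were lost. By contrast, 5 were higher at all 3 times (16.6%): Slc25a5, Slc25a17, Slc25a18, Slc25a24 and Slc25a37. Slc25a2, Slc25a10 and Slc25a14 were called at none of the 3 times with TMM scaling. With library totals Slc25a10 (0.56, 0.58 and 0.68) and Slc25a14 (0.60, 0.64 and 0.59) were called higher at all 3 times. Slc25a2 was then called higher on day 10 (0.53).

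**Figure D2:**
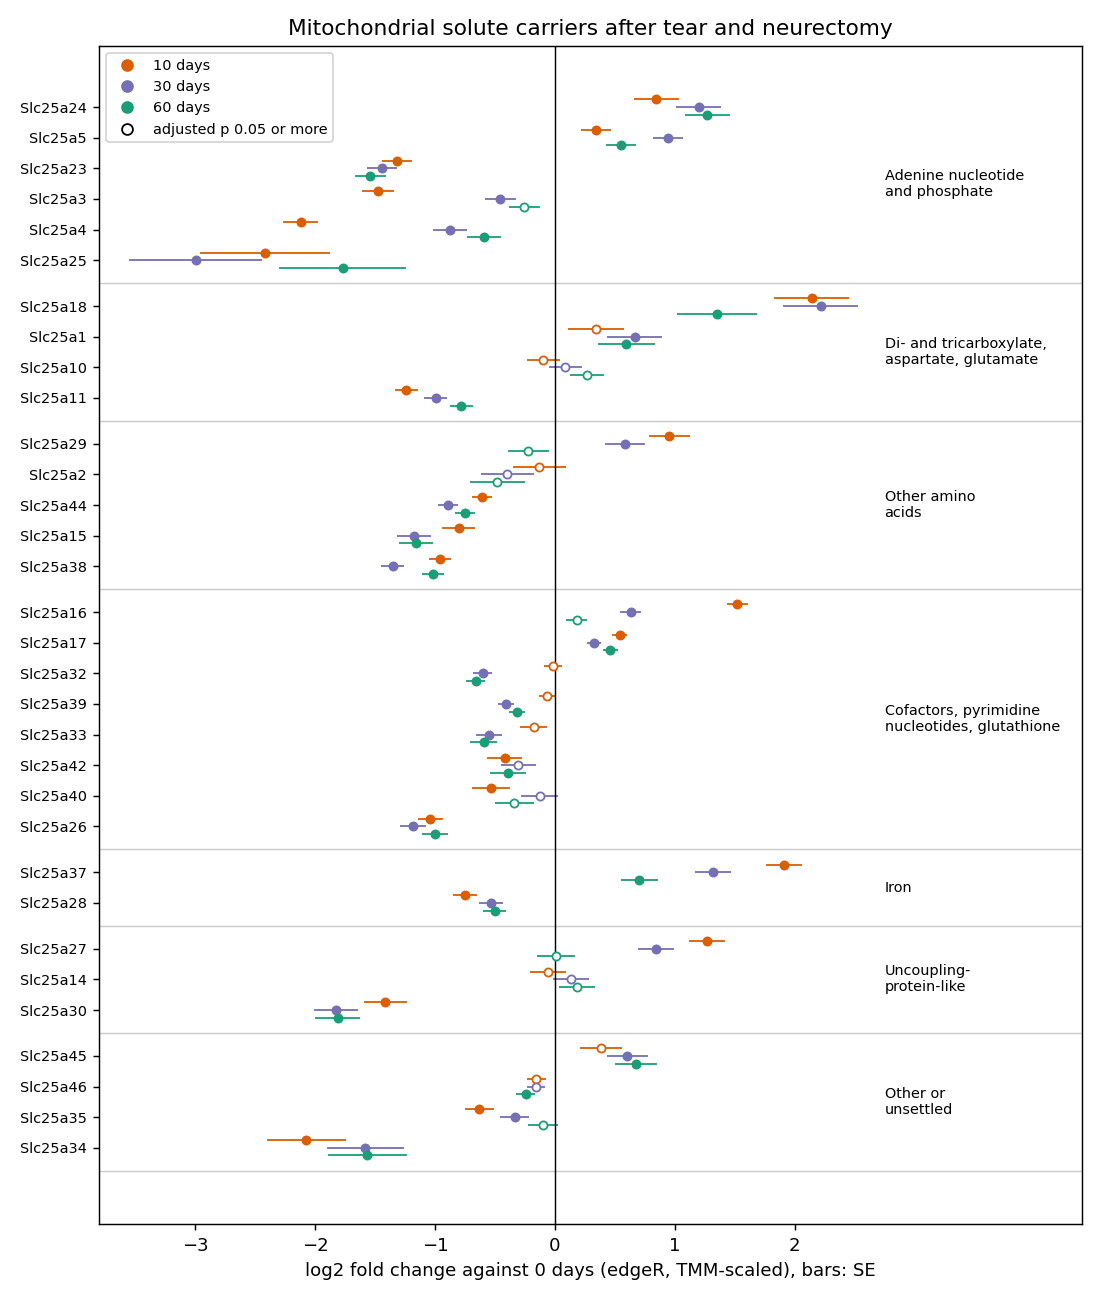
Log2 fold change against day 0 of 32 of the tested carriers on days 10, 30 and 60 (points; bars are SE; open points have an adjusted p of 0.05 or more), grouped by what they carry. On days 10 and 30 every group holds members on opposite sides of 0.

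The adenine nucleotide and phosphate carriers split into falling and rising members. Of 6 tested, 4 fell and 2 rose on days 10 and 30, and 3 fell and 2 rose on day 60. Their median log2 fold changes were -1.40, -0.66 and -0.42.

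Slc25a4, the muscle ADP/ATP exchanger also called ANT1, stood at 6457, 6563, 7199 and 6880 CPM in the 4 libraries on day 0 and at 1735, 1436, 1478 and 1585 CPM on day 10. It reached 2691, 4154, 4604 and 3340 CPM on day 30 and 3847, 4880, 4961 and 4323 CPM on day 60. Every operated library was below every control, and every 60-day library was above every 10-day one. The log2 fold change against day 0 was -2.12 ± 0.15 (SE; edgeR adjusted p 4.41e-09) on day 10, -0.87 ± 0.14 (5.42e-05) on day 30 and -0.59 ± 0.14 (0.00201) on day 60. The 60-day call was lost with library totals, at -0.18 (edgeR adjusted p 0.206).

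Slc25a5, or ANT2, the exchanger typical of dividing and non-muscle cells, went the other way. It was at 42.8, 47.2, 47.9 and 31.0 CPM on day 0, 54.5, 49.3, 57.6 and 53.1 on day 10, 99.6, 74.3, 77.8 and 73.0 on day 30, and 55.6, 66.7, 60.7 and 64.6 on day 60. No operated library overlapped the controls, and the highest levels were on day 30. It changed by log2 0.34 ± 0.12 (SE; edgeR adjusted p 0.0232), 0.94 ± 0.12 (6.64e-06) and 0.55 ± 0.12 (0.00129). On day 10 the call was lost without the fourth control library (0.22, adjusted p 0.0743) or the third 10-day library (0.31, 0.0620). The sequence of Slc25a5 has close relatives elsewhere in the genome, so its count is uncertain to the extent that the counting split such fragments.

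Because both exchangers were counted in the same libraries, their ratio needs no scaling factor. Fragments of Slc25a4 per fragment of Slc25a5 numbered 151, 139, 150 and 222 on day 0. They numbered 31.9, 29.1, 25.7 and 29.8 on day 10, 27.0, 55.9, 59.2 and 45.75 on day 30, and 69.25, 73.2, 81.8 and 67.0 on day 60. All 12 operated libraries lay below all 4 controls. The log2 ratio differed from day 0 by -2.49 ± 0.17 (SE), -1.85 ± 0.30 and -1.16 ± 0.16, each with the smallest two-sided p an exact permutation test of 4 against 4 can give, 0.0286, or 0.0343 adjusted over 12 such tests.

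The promoters of these exchangers are shown because the transcripts moved in opposite directions. They are the 250 bases before the start of each gene in RefSeq (build GRCr8, both on the plus strand, chr16:52805271-52805520 and chrX:120897366-120897615), with TATAA on the gene's strand in capitals.
Slc25a4: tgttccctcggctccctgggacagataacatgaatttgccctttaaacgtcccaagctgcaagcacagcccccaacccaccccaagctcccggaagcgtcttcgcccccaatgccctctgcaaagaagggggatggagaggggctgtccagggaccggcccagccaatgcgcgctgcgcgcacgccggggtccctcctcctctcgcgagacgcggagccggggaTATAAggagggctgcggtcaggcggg
Slc25a5: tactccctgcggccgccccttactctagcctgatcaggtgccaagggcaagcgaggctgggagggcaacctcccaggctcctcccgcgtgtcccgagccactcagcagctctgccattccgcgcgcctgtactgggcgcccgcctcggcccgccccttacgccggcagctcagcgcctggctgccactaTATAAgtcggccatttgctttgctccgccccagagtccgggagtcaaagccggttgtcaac
TATAA began 26 bases before the start in Slc25a4 and 61 bases before it in Slc25a5. Besides these, only Slc25a38 held it among the 32 members with a promoter in the RefSeq table, against 16.7% of all 33469 promoters in that table. Both windows were rich in G and C, at 65.6% and 66.8%. This motif was chosen after the sequences were seen, and a match is a description only.

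Slc25a3, the phosphate carrier that supplies ATP synthase, followed Slc25a4. It averaged 1609 CPM ± 87.6 (SD, n = 4) on day 0, 579 ± 66.4 on day 10, 1173 ± 207 on day 30 and 1349 ± 199 on day 60. It fell on day 10 (log2 -1.47 ± 0.13, edgeR adjusted p 6.84e-08) and day 30 (-0.46 ± 0.13, 0.00580; 0.03 with library totals) and was not called on day 60 (-0.25 ± 0.13, 0.103), although its 4 libraries were all below the controls.

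The calcium-dependent carriers, which exchange ATP-Mg for phosphate, split as well. Slc25a25 had the largest fall of the members tested. Its levels were 184, 262, 172 and 52.3 CPM on day 0, 30.5, 18.6, 58.9 and 17.6 on day 10, 16.01, 28.4, 25.3 and 13.95 on day 30, and 47.1, 96.7, 28.8 and 24.1 on day 60. The fourth control library was far below the other controls and overlapped the 10- and 60-day groups, but not the 30-day group. The change in log2 was -2.42 ± 0.54 (SE; edgeR adjusted p 0.00123), -2.996 ± 0.56 (0.000279) and -1.77 ± 0.53 (0.0103), with the widest SE of any member.

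The promoter of Slc25a25 is shown as that of the member with the largest fall (GRCr8, minus strand, chr3:36116582-36116831). Capitals mark CAGCTG, an E-box of the kind bound by myogenic factors, and TGACGTCA, the palindromic cAMP response element.
Slc25a25: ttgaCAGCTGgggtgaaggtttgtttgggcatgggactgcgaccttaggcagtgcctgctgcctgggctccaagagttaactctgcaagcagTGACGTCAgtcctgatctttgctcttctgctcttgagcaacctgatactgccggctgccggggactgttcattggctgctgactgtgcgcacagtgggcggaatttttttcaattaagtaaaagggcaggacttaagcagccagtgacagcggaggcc
These began 246 and 158 bases before the start. TGACGTCA, read the same on both strands and chosen after the sequence was seen, was present in 1 further member, Slc25a33, and in 1.59% of all promoters.

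Slc25a24 rose while Slc25a25 fell. Its libraries were at 4.10, 6.27, 5.49 and 5.51 CPM on day 0, 11.6, 7.26, 9.42 and 10.3 on day 10, 10.7, 14.98, 13.0 and 10.6 on day 30, and 10.3, 12.1, 11.8 and 17.6 on day 60. All operated libraries exceeded all controls, by log2 0.84 ± 0.19 (SE; edgeR adjusted p 0.000899), 1.20 ± 0.19 (3.72e-05) and 1.27 ± 0.19 (3.11e-05). Fragments of Slc25a25 per fragment of Slc25a24 went from 9.50 to 44.8 on day 0 to 1.70 to 6.255 on day 10, 1.32 to 1.945 on day 30 and 1.365 to 7.99 on day 60. The log2 ratio differed by -3.22 ± 0.65 (SE), -4.05 ± 0.54 and -3.03 ± 0.76 (exact permutation p 0.0286 each, adjusted 0.0343).

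The related carrier Slc25a23 also fell and stayed low. It was at 78.3, 73.5, 66.0 and 70.6 CPM on day 0, 33.5, 30.8, 30.7 and 20.8 on day 10, 28.1, 28.3, 22.6 and 26.9 on day 30, and 28.3, 22.3, 22.7 and 25.9 on day 60. No operated library came near the controls. The change in log2 was -1.32 ± 0.13 (SE; edgeR adjusted p 1.34e-07), -1.44 ± 0.13 (6.95e-08) and -1.54 ± 0.13 (7.35e-08).

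**Figure D3:**
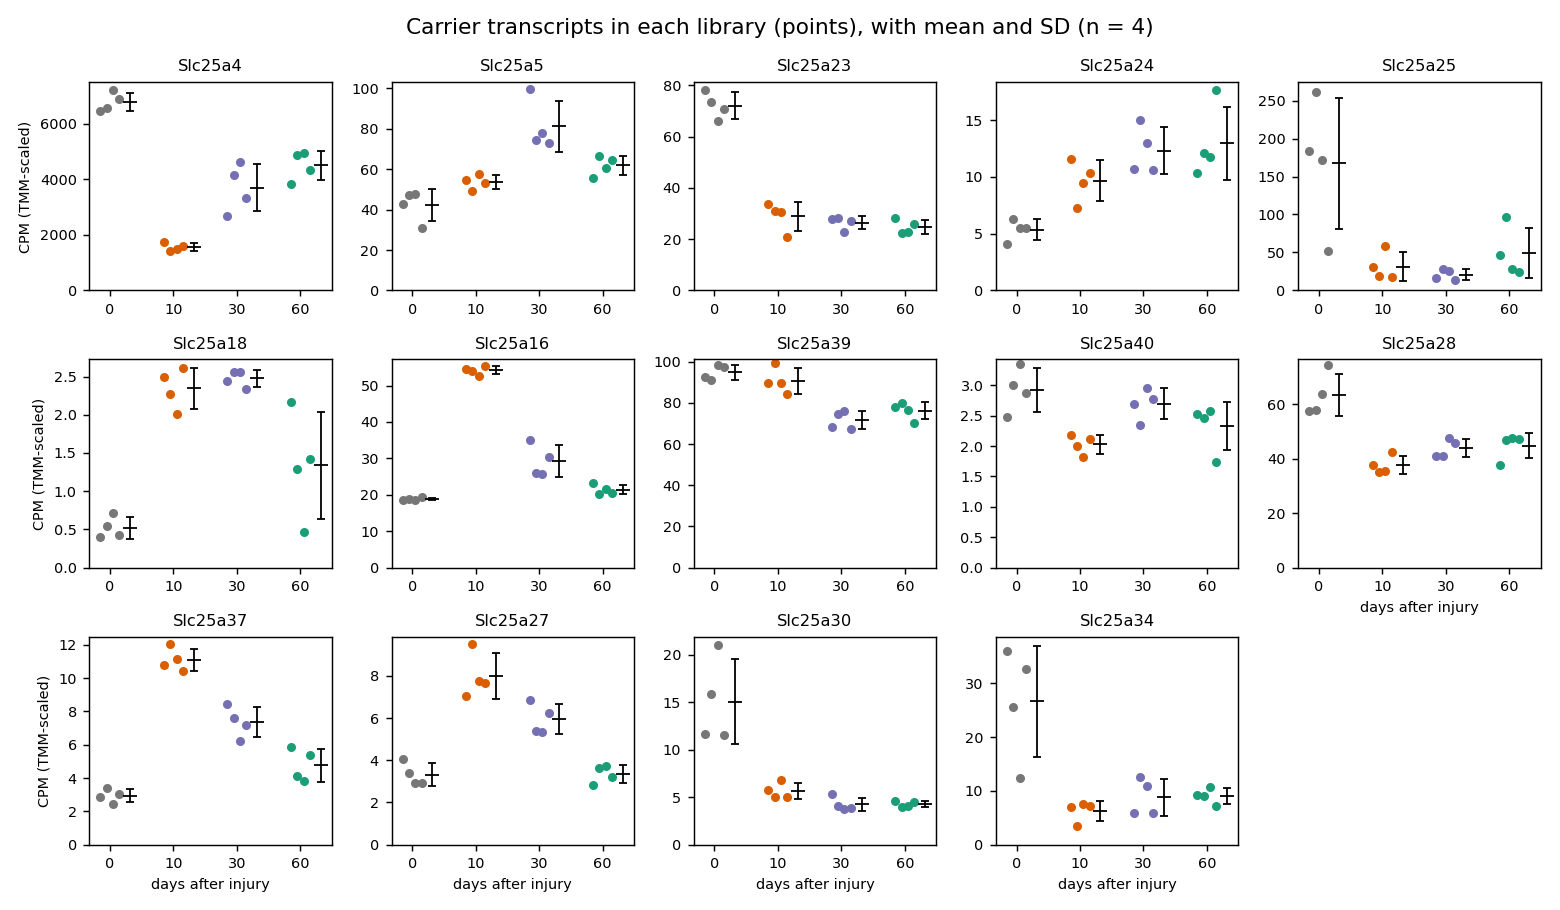
TMM-scaled CPM (linear axes from 0) of 14 carriers in each library (points) by days after injury, with mean and SD (n = 4). Slc25a4, Slc25a23 and Slc25a28 are lower in every operated library than in any control, and Slc25a5, Slc25a16, Slc25a24 and Slc25a37 are higher.

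Of the di- and tricarboxylate, aspartate and glutamate carriers 6 were in the table and 4 were tested. Slc25a11, the oxoglutarate-malate exchanger of the malate-aspartate shuttle, fell from 377 CPM ± 15.4 (SD, n = 4) to 160 ± 12.6 on day 10, and was at 189 ± 20.2 on day 30 and 219 ± 27.3 on day 60. Its groups did not overlap the controls at any time, with log2 fold changes of -1.24 ± 0.098 (SE; edgeR adjusted p 1.52e-08), -0.99 ± 0.097 (2.42e-07) and -0.78 ± 0.097 (4.73e-06). Slc25a1, the citrate carrier that supplies the cytosol with acetyl units for lipid synthesis, was not called on day 10 (0.34 ± 0.23, adjusted p 0.203) and rose on day 30 (0.67 ± 0.23, 0.0173) and day 60 (0.60 ± 0.23, 0.0366). The 60-day libraries ranged from 2.31 to 5.38 CPM and overlapped the controls, at 1.87 to 2.86 CPM. The 30-day call did not hold in 2 of 16 leave-one-out fits (0.57 and 0.59) and the 60-day call in 4, the lowest value being 0.36 (edgeR adjusted p 0.175) without the fourth 60-day library. Slc25a10, the dicarboxylate carrier, was not called at any of the 3 times with TMM scaling (-0.096, 0.089 and 0.27). With library totals it was called higher at all 3 (0.56, 0.58 and 0.68, edgeR adjusted p 0.00163, 0.00149 and 0.000523). Upper-quartile factors called it on day 60 (0.41, 0.0223).

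Slc25a18, a glutamate carrier with low muscle levels, had the largest rise of the members tested. It was at 0.394, 0.550, 0.714 and 0.431 CPM on day 0, from 7, 15, 16 and 9 fragments. On day 10 it was at 2.50, 2.27, 2.01 and 2.61 CPM, on day 30 at 2.44, 2.56, 2.56 and 2.33, and on day 60 at 2.17, 1.29, 0.468 and 1.42. The groups on days 10 and 30 lay wholly above the controls, and the third 60-day library, with 8 fragments, lay among them. It changed by log2 2.14 ± 0.31 (SE; edgeR adjusted p 1.49e-05), 2.22 ± 0.31 (1.20e-05) and 1.35 ± 0.33 (0.00231).

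Among the 5 other amino acid carriers, 3 fell at all times. Slc25a38, which brings glycine into mitochondria for heme synthesis, fell by 0.96, 1.35 and 1.02 on the log2 scale on days 10, 30 and 60 (edgeR adjusted p 1.71e-07, 6.51e-09 and 2.38e-07), from 53.7 CPM ± 6.66 (SD, n = 4) to 27.6 ± 1.59, 21.0 ± 2.52 and 26.5 ± 0.886. Slc25a15, the ornithine carrier, fell by 0.80, 1.18 and 1.16 (8.20e-05, 2.20e-06 and 4.63e-06), and the 10-day call was lost with library totals (-0.14, edgeR adjusted p 0.340). Slc25a44, a carrier of branched-chain amino acids, fell by 0.61, 0.89 and 0.75 (8.44e-06, 1.69e-07 and 1.92e-06), and its 10-day value was 0.051 with library totals. Slc25a29, a carrier of basic amino acids, rose on day 10 (0.96 ± 0.17, edgeR adjusted p 0.000120) and day 30 (0.59 ± 0.17, 0.00644) and was not called on day 60 (-0.22, 0.287). Its second 10-day library was at 36.6 CPM and the other 3 were at 22.9 to 23.5, all above the controls at 10.9 to 15.6. Slc25a2, an ornithine carrier related to Slc25a15, was not called with TMM scaling (-0.13, -0.40 and -0.48). With library totals it was called higher on day 10 (0.53, edgeR adjusted p 0.0377).

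The carriers of cofactors, pyrimidine nucleotides and glutathione were the most numerous, with 9 tested. On day 10, 2 rose and 4 fell. On day 30, 2 rose and 5 fell, and on day 60, 1 rose and 6 fell. One riser with little spread between libraries was Slc25a16, a carrier linked to coenzyme A supply. It was at 18.4, 18.9, 18.7 and 19.4 CPM on day 0, 54.6, 54.1, 52.8 and 55.3 on day 10, 34.9, 26.1, 25.6 and 30.5 on day 30, and 23.1, 20.2, 21.6 and 20.6 on day 60. All operated libraries were above the controls, with the peak on day 10. The change in log2 was 1.52 ± 0.087 (SE; edgeR adjusted p 7.57e-10), 0.63 ± 0.087 (9.27e-06) and 0.18 ± 0.088 (0.0834), the last not called. The 60-day rise was called with library totals (0.59, edgeR adjusted p 0.000133) and with upper-quartile factors (0.32, 0.00424).

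Slc25a17, the peroxisomal cofactor carrier, rose at all 3 times by log2 0.54, 0.33 and 0.46 (edgeR adjusted p 1.13e-06, 0.000239 and 1.16e-05). Slc25a26, which imports S-adenosylmethionine, fell at all 3 times (log2 -1.04, -1.18 and -0.9976; edgeR adjusted p 3.40e-07, 1.15e-07 and 1.29e-06). Slc25a32, a folate and FAD carrier, and Slc25a33, a pyrimidine nucleotide carrier, were not called on day 10 (-0.014 and -0.18) and fell on day 30 (-0.60 and -0.55) and day 60 (-0.66 and -0.59). With library totals the 30-day calls of Slc25a32 (-0.10, edgeR adjusted p 0.312) and Slc25a33 (-0.053, 0.704) and the 60-day call of Slc25a33 (-0.185, 0.189) were lost. On day 10 Slc25a32 and Slc25a33 were then called higher (0.64 and 0.48, edgeR adjusted p 5.66e-06 and 0.00156). Slc25a42, the coenzyme A carrier, was lower on days 10 and 60 (-0.42 and -0.39, adjusted p 0.0203 and 0.0312), but its groups overlapped the controls and library totals gave 0.24 and 0.014. Each of these calls did not hold in 4 of 16 leave-one-out fits, with changes of -0.39 to -0.29 on day 10 and -0.35 to -0.25 on day 60.

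Slc25a39, which imports glutathione, changed late with TMM scaling. Its libraries were at 92.7, 91.0, 98.4 and 97.3 CPM on day 0, 89.6, 99.5, 89.75 and 84.1 on day 10, 68.3, 74.4, 76.2 and 67.2 on day 30, and 77.8, 80.0, 76.6 and 70.2 on day 60. The later groups were below the controls and the 10-day group overlapped them, with log2 values of -0.064 ± 0.067 (SE; edgeR adjusted p 0.420), -0.41 ± 0.067 (6.26e-05) and -0.32 ± 0.067 (0.000775). With library totals it was called higher on day 10 (0.59, edgeR adjusted p 1.09e-07) and not called on the later days (0.085 and 0.090). Its relative Slc25a40 was at 2.47, 3.01, 3.35 and 2.87 CPM on day 0, 2.18, 2.00, 1.81 and 2.12 on day 10, 2.69, 2.35, 2.96 and 2.77 on day 30, and 2.54, 2.47, 2.57 and 1.73 on day 60. It fell on day 10 (-0.53 ± 0.16, edgeR adjusted p 0.00759; 0.13 with library totals) and was not called on day 30 (-0.13, 0.489) or day 60 (-0.34, 0.0815). The log2 ratio of Slc25a39 to Slc25a40 fragments was higher than on day 0 by 0.46 ± 0.12 (SE) on day 10 (exact permutation p 0.0286, adjusted 0.0343). It differed by -0.29 ± 0.12 on day 30 (exact p 0.0857, adjusted 0.0935) and by 0.018 ± 0.13 on day 60 (exact p 0.886).

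The mitoferrins, which carry iron for heme and iron-sulfur clusters, moved in opposite directions. Slc25a37, mitoferrin 1, known from red-cell precursors, was at 2.87, 3.41, 2.45 and 3.02 CPM on day 0 and at 10.8, 12.02, 11.1 and 10.5 on day 10. On day 30 it was at 8.43, 7.60, 6.24 and 7.20 CPM and on day 60 at 5.86, 4.09, 3.80 and 5.38. All operated libraries exceeded the controls, with the highest levels on day 10. The change in log2 was 1.91 ± 0.15 (SE; edgeR adjusted p 1.50e-08), 1.32 ± 0.15 (1.34e-06) and 0.71 ± 0.16 (0.00102). Erythroid markers were measured beside it: of 5 tested, 5 were lower on day 10, 2 on day 30 and 0 on day 60, and 0 were called higher. Their part in the result was not tested. Their summed level was 652 to 2104 CPM on day 0, 212 to 284 on day 10, 297 to 754 on day 30 and 376 to 941 on day 60.

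Slc25a28, mitoferrin 2, the form of most other tissues, was at 57.6, 57.9, 63.6 and 74.4 CPM on day 0 and at 37.6, 35.2, 35.5 and 42.4 on day 10. It was at 40.9, 41.1, 47.7 and 45.8 CPM on day 30 and at 37.8, 46.7, 47.4 and 47.1 on day 60. All operated libraries were below the controls, by -0.75 ± 0.098 (SE; edgeR adjusted p 4.78e-06), -0.53 ± 0.098 (0.000176) and -0.50 ± 0.098 (0.000383) on the log2 scale. With library totals none of these passed (-0.093, -0.039 and -0.091). The ratio of mitoferrin fragments is free of that choice. Fragments of Slc25a37 per fragment of Slc25a28 were 0.0498, 0.0589, 0.0386 and 0.0406 on day 0, 0.287, 0.342, 0.314 and 0.247 on day 10, 0.206, 0.185, 0.131 and 0.157 on day 30, and 0.155, 0.0876, 0.08015 and 0.114 on day 60. The 3 operated groups all lay above the controls, by log2 2.66 ± 0.17 (SE), 1.85 ± 0.20 and 1.19 ± 0.25 (exact permutation p 0.0286 each, adjusted 0.0343).

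**Figure D4:**
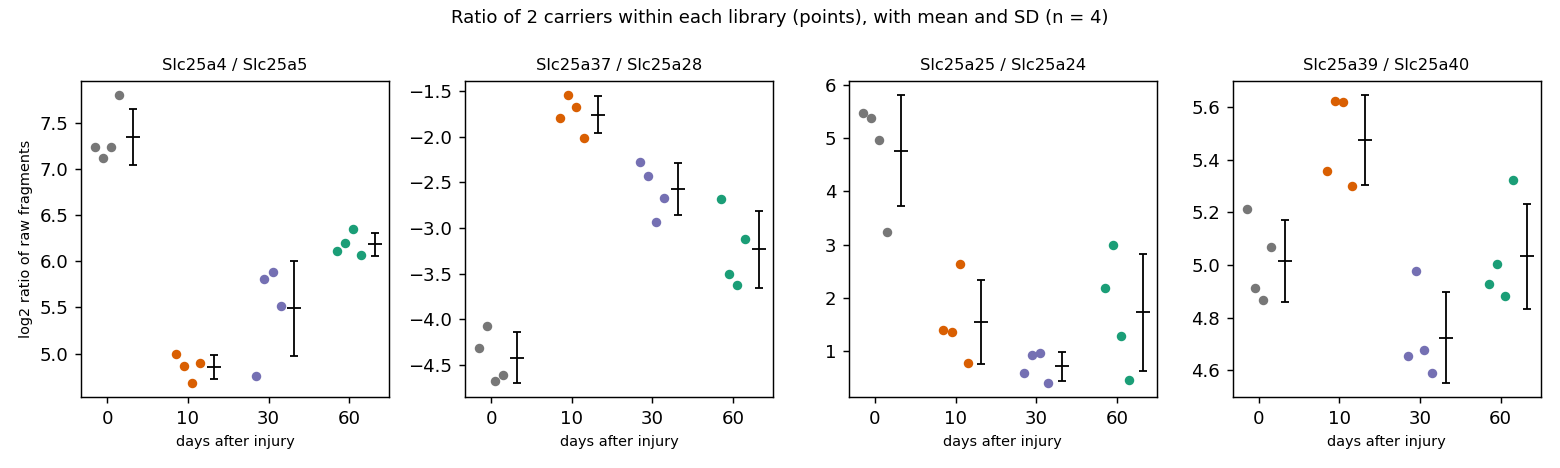
Log2 ratio of the raw fragments of 4 pairs of related carriers in each library (points) by days after injury, with mean and SD (n = 4). The Slc25a4 to Slc25a5 and Slc25a25 to Slc25a24 ratios are lower in every operated library than in any control, the Slc25a37 to Slc25a28 ratio is higher in every one, and the Slc25a39 to Slc25a40 ratio is wholly above the controls on day 10 alone.

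The uncoupling-protein-like carriers also differed among themselves. Slc25a27, known as UCP4 and mainly described in neurons, was at 4.05, 3.41, 2.90 and 2.92 CPM on day 0, 7.02, 9.53, 7.74 and 7.65 on day 10, 6.84, 5.39, 5.36 and 6.23 on day 30, and 2.81, 3.65, 3.74 and 3.20 on day 60. With TMM scaling it was above all controls on days 10 and 30 and back among them on day 60, with log2 fold changes of 1.27 ± 0.15 (SE; edgeR adjusted p 1.36e-06), 0.84 ± 0.15 (0.000118) and 0.012 ± 0.16 (0.955). With library totals Slc25a27 was still called higher on day 60 (0.42, edgeR adjusted p 0.0384). Slc25a30 fell at all times. Its libraries were at 11.7, 15.9, 21.1 and 11.6 CPM on day 0, 5.74, 4.99, 6.82 and 5.04 on day 10, 5.31, 4.04, 3.76 and 3.86 on day 30, and 4.56, 3.98, 4.09 and 4.53 on day 60. Every operated library was below every control, by -1.42 ± 0.18 (SE; edgeR adjusted p 3.42e-06), -1.83 ± 0.18 (3.29e-07) and -1.81 ± 0.19 (7.54e-07) on the log2 scale. Slc25a14 was not called with TMM scaling (-0.055, 0.14 and 0.18). With library totals it was called higher on days 10, 30 and 60 (0.60, 0.64 and 0.59, edgeR adjusted p 0.00219, 0.00163 and 0.00375).

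Among the carriers of other or unsettled role, Slc25a34 fell most. It was at 35.9, 25.5, 12.5 and 32.6 CPM on day 0, 6.91, 3.55, 7.55 and 7.22 on day 10, 5.85, 12.6, 10.9 and 5.91 on day 30, and 9.22, 8.97, 10.7 and 7.15 on day 60. The third control library was low and was exceeded by 1 library on day 30. Log2 changes were -2.07 ± 0.33 (SE; edgeR adjusted p 5.20e-05), -1.58 ± 0.32 (0.000528) and -1.56 ± 0.33 (0.000811). Slc25a35 was lower on days 10 and 30 (-0.63 and -0.33, adjusted p 0.000293 and 0.0246; 0.028 and 0.16 with library totals), and its 30-day call did not hold in 4 of 16 leave-one-out fits (-0.31 to -0.27). Slc25a45 was higher on days 30 and 60 (0.60 and 0.68, adjusted p 0.00573 and 0.00344). Slc25a46, an outer-membrane protein of mitochondrial dynamics, was lower on day 60 alone by the threshold (-0.24 ± 0.077, edgeR adjusted p 0.0126; 0.16 with library totals). The 60-day call was lost without the fourth 60-day library (-0.20, adjusted p 0.0535) and with upper-quartile factors (-0.10, 0.206). By DESeq2 Slc25a46 was also called lower on day 10 (-0.19, adjusted p 0.0392) and day 30 (-0.185, 0.0436). With library totals it was called higher on days 10 and 30 (0.50 and 0.34, edgeR adjusted p 8.97e-06 and 0.000596).

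The comparison of day 60 with day 10 describes how these groups differed in muscle that stayed injured. Between these groups 17 of the 33 members differed, 8 higher and 9 lower on day 60, against 61.1% of all genes, 29.1% higher and 31.9% lower. Members are grouped below by their 10-day calls. The same 10-day libraries enter the comparison with day 60, which favours a return, so the counts do not measure recovery. The matching share among all genes called lower or higher on day 10 was not computed. Of the 16 members that were lower on day 10, 6 were higher on day 60 than on day 10, among them Slc25a3, Slc25a4, Slc25a11, Slc25a28 and Slc25a35. The largest of these were Slc25a4 (log2 1.53 ± 0.14, edgeR adjusted p 2.25e-07) and Slc25a3 (1.22 ± 0.13, 8.76e-07). Only Slc25a15 of the 16 was lower still (-0.36 ± 0.14, adjusted p 0.0406), which did not hold in 9 of 16 leave-one-out fits (-0.34 to -0.28). For the other 9, among them Slc25a23 (-0.22), Slc25a26 (0.040), Slc25a30 (-0.39) and Slc25a38 (-0.059), no difference between days 60 and 10 was called.

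Of the 8 members that were higher on day 10, 5 were lower on day 60 than on day 10. These were Slc25a16 (log2 -1.34 ± 0.087, edgeR adjusted p 9.29e-09), Slc25a27 (-1.26 ± 0.15, 2.33e-06), Slc25a37 (-1.21 ± 0.14, 2.61e-06), Slc25a29 (-1.18 ± 0.17, 2.05e-05) and Slc25a18 (-0.79 ± 0.28, 0.0217). The Slc25a18 call was lost without the fourth 10-day library (-0.73, adjusted p 0.0513). Slc25a24 was higher again (0.43 ± 0.18, adjusted p 0.0499), which did not hold in 11 of 16 leave-one-out fits (0.26 to 0.47). The Slc25a28 and Slc25a10 rises (0.25 and 0.37, adjusted p 0.0369 and 0.0299) did not hold in 6 and 5 of 16 such fits (0.22 to 0.25 and 0.29 to 0.36). Slc25a32 (-0.65), Slc25a33 (-0.42) and Slc25a39 (-0.25) were also lower on day 60 than on day 10. Under scaling by library totals the all-gene median moved by -0.25 in this comparison, and 3 members were then higher and 16 lower. The rises of Slc25a10 (0.12), Slc25a24 (0.19), Slc25a28 (0.0020) and Slc25a35 (0.28) were then no longer called (edgeR adjusted p 0.481, 0.404, 0.988 and 0.0690).

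Other listed genes of mitochondrial transport, whose symbols do not begin with Slc25a, were called in both directions. Of 24 tested, 8 rose and 11 fell on day 10, 8 rose and 13 fell on day 30, and 6 rose and 13 fell on day 60, with median log2 fold changes of -0.16, -0.39 and -0.35. Of all genes tested 33.3%, 33.7% and 29.9% were higher and 29.4%, 30.9% and 29.1% lower at these times. Mpc1 and Mpc2, which together form the pyruvate carrier, averaged 552 CPM ± 33.3 and 132 ± 10.9 (SD, n = 4) on day 0 and 163 ± 21.8 and 55.7 ± 3.53 on day 10. They fell by 1.76 and 1.24 on the log2 scale on day 10 (edgeR adjusted p 3.59e-09 and 1.19e-07), and on day 60 Mpc1 was at -0.39 (0.00919) and Mpc2 at -0.023 (0.872). With TMM scaling the outer-membrane channels Vdac1, Vdac2 and Vdac3 fell at all 3 times, with log2 fold changes of -1.05, -0.76 and -0.98 on day 10. They were at -0.95, -0.27 and -0.62 on day 30 and at -0.59, -0.36 and -0.32 on day 60. None of these genes outside the family was checked with library totals. That scaling moved the all-gene median by 0.66, 0.49 and 0.41 on days 10, 30 and 60. Ucp2, an uncoupling protein abundant in immune cells, was not called on day 10 (0.050) and rose on day 30 (1.38 ± 0.27, edgeR adjusted p 0.000382) and day 60 (2.12 ± 0.27, 1.10e-05). The macrophage markers given above were high at all 3 times, day 10 included, and their part in this was not tested. Ucp3, the muscle form, was not called against day 0 (0.82, 0.74 and -0.50).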

How the data were processed

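The 16 supraspinatus libraries were made with the TruSeq mRNA kit, as the labels state. The authors deposited 1 table of expected counts (raw fragments per gene, unscaled), per the file headers. The submitters' processing notes name bcl2fastq 1.8.4, FastQC, TopHat2 2.0.9, Bowtie2 2.1.0.0, Cufflinks, Cuffdiff 2.1.1 and the build rn5. The annotation and strand setting are not given in the sources used here, so fragments of overlapping or antisense genes cannot be told apart. No member had a fractional value. All sample columns were used.

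Counts were rounded, filtered (filterByExpr, 11658 of 17147 genes kept) and scaled with TMM factors. The 16 libraries entered 1 edgeR quasi-likelihood model (robust, no covariate), with Benjamini-Hochberg adjustment over all genes tested and a threshold of 0.05. SE is the log2 fold change divided by the square root of F. Ratios of related carriers used log2 of raw fragments plus 0.5, compared by two-sided exact permutation tests. Before TMM scaling, 3 fragments stood for 0.0752 to 0.175 per 1 M fragments, counting error only. No replicates agreed within counting error (chi-square per gene 13.2 to 107.6 over 24 pairs).

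Values in every library are given for the related pairs and for the 5 largest rises and 5 largest falls, and other members by role. The values of 1 tested member are not reported here, though counts include it. The members and lists were chosen with earlier results of these data known. Alternatives were RLE and upper-quartile factors, library totals, DESeq2, no filter, the column suffix as a replicate block, the title letter as covariate, and leaving out each library. Planned pairs with Slc25a12, Slc25a13 or Slc25a36 were not analysed here. The letter ending each title is not explained in the labels. The code was tested on simulated data. Promoters came from RefSeq (GRCr8), matched by symbol for 32 of 38 members. Models were run with edgeR 4.0.16 and DESeq2 1.42.0 (limma 3.58.1 loaded) in R 4.3.3, and figures drawn with matplotlib 3.10.9 in python 3.11.15.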

Additional observations from a re-analysis of the deposited data

Results flagged for a closer look

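In each of the 132 sets of 4 libraries (33 members at 4 times) the highest and lowest library were compared with the rest. In 6 sets 1 library stood apart by more than Dixon's 95% critical value, where chance gives about 1 in 20. At 0 days these were Slc25a10 in the third library, at 7.18 CPM against 5.28 to 5.555 in the others, and Slc25a38 in the fourth, at 63.6 CPM against 49.2 to 51.3. At 10 days the second library was high for Slc25a29, at 36.6 CPM against 22.9 to 23.5, and low for Slc25a34, at 3.55 CPM against 6.91 to 7.55. At 60 days Slc25a28 was low in the first library, at 37.8 CPM against 46.7 to 47.4, and Slc25a40 was low in the fourth, at 1.73 CPM against 2.47 to 2.57. None of the members was called in opposite directions at 10 and 60 days against 0 days.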

How the results depend on the processing

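Of 132 log2 fold changes (33 members, 4 comparisons) 92 were called. None of the 92 turned in a fit without 1 library, and 10 turned with library totals, 0 with any other alternative. With library totals 16 calls were lost and 15 gained with the sign kept. Those gained against 0 days were Slc25a1 and Slc25a45 at 10 days and Slc25a10 and Slc25a14 at 30 days. At 60 days they were Slc25a10, Slc25a14, Slc25a16 and Slc25a27. Newly called with the sign turned were Slc25a2, Slc25a10, Slc25a14, Slc25a32, Slc25a33, Slc25a39 and Slc25a46 at 10 days. Slc25a40 and Slc25a46 were so at 30 days and Slc25a35 at 60 days. With other alternatives calls were lost or gained with the sign kept. Upper-quartile factors lost 4 and gained 3, DESeq2 lost 1 and gained 2, and RLE factors and the title letter each lost 1 and gained 1. Without the filter 2 were lost. Those lost with upper-quartile factors included Slc25a35 at 30 days and Slc25a42 at 60 days (edgeR adjusted p 0.134 and 0.163). Library totals left, of members, 17 higher and 9 lower at 10 days, 14 higher and 10 lower at 30 days, 12 higher and 10 lower at 60 days, and 3 higher and 16 lower between 60 and 10 days. Among all called genes the share higher went from 53.1%, 52.2%, 50.7% and 47.7% to 87.4%, 84.1%, 82.7% and 28%. It was 57.6%, 62.2%, 63.6% and 55.3% under upper-quartile scaling. Signs that turned with library totals were, at 10 days, Slc25a2 (0.53), Slc25a10 (0.56), Slc25a14 (0.60), Slc25a32 (0.64), Slc25a33 (0.48), Slc25a35 (0.028), Slc25a39 (0.59), Slc25a40 (0.13), Slc25a42 (0.24), Slc25a44 (0.051) and Slc25a46 (0.50). At 30 days they were Slc25a2 (0.093), Slc25a3 (0.03), Slc25a35 (0.16), Slc25a39 (0.085), Slc25a40 (0.37), Slc25a42 (0.18) and Slc25a46 (0.34). At 60 days they were Slc25a3 (0.16), Slc25a29 (0.19), Slc25a35 (0.30), Slc25a39 (0.090), Slc25a40 (0.066), Slc25a42 (0.014) and Slc25a46 (0.16), and between 60 and 10 days Slc25a5 (-0.042), Slc25a14 (-0.013), Slc25a26 (-0.21), Slc25a40 (-0.062) and Slc25a42 (-0.23). The cause was not tested. Values not called also turned with upper-quartile factors (Slc25a32 0.039 at 10 days, Slc25a35 0.041 at 60 days, Slc25a17 0.0088 and Slc25a38 0.027 between 60 and 10 days), without the filter (Slc25a27 -0.0094 at 60 days) and with the title letter (Slc25a27 -0.016 at 60 days). Without 1 library each, members called ranged from 7 to 9 higher and 15 to 17 lower at 10 days, 9 to 10 and 16 to 18 at 30 days, 6 to 8 and 15 to 18 at 60 days, and 5 to 8 and 8 to 11 between 60 and 10 days, the 5 being without 10-day library 2 or 3 or 60-day library 3 or 4. The joint count was 27 to 30. Of the called values, 12 were lost in some such fit. Values not called that turned sign in some such fit were, at 10 days, Slc25a2 (-0.26 to 0.017), Slc25a10 (-0.17 to 0.022), Slc25a14 (-0.13 to 0.015) and Slc25a32 (-0.088 to 0.024), at 60 days, Slc25a27 (-0.045 to 0.13) and Slc25a35 (-0.20 to 0.0029), and between 60 and 10 days, Slc25a26 (-0.052 to 0.091) and Slc25a42 (-0.044 to 0.12). Libraries sharing a column suffix did not deviate together on average (mean r 0.0191, against -0.006 for other suffixes). Their r ran from -0.30 to 0.28, with 5 of 24 pairs over 0.1. These values do not settle what the suffix stands for. With it as a replicate block, 8 members were higher and 16 lower at 10 days, 10 and 17 at 30 days, 6 and 17 at 60 days, and 7 and 8 between 60 and 10 days, with 28 in the joint test. That block lost Slc25a1 at 60 days (0.57, edgeR adjusted p 0.0641) and, between 60 and 10 days, Slc25a15 (-0.35, 0.0582) and Slc25a24 (0.41, 0.0776). Depth limits Slc25a18 most among the named members, with 7 to 16 fragments per control library.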

Other observations

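Among the 32 members with a RefSeq promoter (GRCr8, 250 bases before the start), CAGCTG on either strand was found in 4, Slc25a2, Slc25a18, Slc25a24 and Slc25a25, against 12% of all 33469 promoters. TCAAGGTCA, the element of estrogen-related receptors, was in 0 of 32 against 0.388%, and the palindromic element of nuclear respiratory factor 1 was in 0 of 32 against 3.75%, both strands searched. These say only which letters are in the windows. In RefSeq, 3 pairs of members are neighbouring protein-coding genes. Within each, 1 gene was at or near 0 and the other expressed: Slc25a54 beside Slc25a24 on chromosome 2 (means of 0 and 267.6 raw fragments), Slc25a47 beside Slc25a29 on chromosome 6 (0.81 and 494.6), and Slc25a41 beside Slc25a23 on chromosome 9 (0.38 and 953.6).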
